A study of Homo sapiens with 9 samples.

Results

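Circadian clock genes were examined in HepG2, a human liver cancer cell line with many hepatocyte traits, after siRNA treatment against the nuclear receptors HNF4alpha and HNF4gamma. Of 10 listed genes, CLOCK, BMAL1, PER1, PER2, PER3, CRY1, CRY2, DBP, TEF and BHLHE40, a gene was kept if a probe set was annotated to its symbol alone, and its brightest such probe set stood for it. This held for 9 genes with 22 probe sets, and 8 genes were among the 13072 genes bright enough to be tested. PER1 was not analysed here, since each of its 4 probe sets was annotated to a microRNA gene as well, and PER3 was too dim for a test. The 9 arrays form the groups knockdown1, knockdown2 and control, with 3 arrays each, and each hybridised sample was total RNA of HepG2. According to the design text, both knockdown groups received siRNA against HNF4alpha and HNF4gamma together. What sets knockdown1 apart from knockdown2, what the control cells were given and the hour of collection are not in the labels. Nor is it said that replicates came from separate cultures, so a p-value here speaks of the scatter of these arrays, part or all of which may be technical.

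The clock is a feedback loop of transcription factors. CLOCK and BMAL1 pair up and switch on genes that carry an E-box, among them the PER and CRY genes, whose products return to the nucleus and silence CLOCK and BMAL1. BHLHE40 is a repressor that binds the same E-boxes, and DBP and TEF are activators that pass the rhythm on through D-boxes. In liver this loop times lipid, glucose, bile acid and drug metabolism. Clock transcripts rise and fall through the day in synchronised cells, so a level at a single time is a snapshot.

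Promoter sequence is shown for PER2, CRY1, CRY2 and BHLHE40, a set of repressors with called differences and a motif match, so that the clock elements near their start sites can be seen. Each window runs from 250 bases before to 50 bases after the start site annotated by RefSeq on GRCh38.p14 and is written 5′ to 3′ on the gene's strand. Capitals mark an E-box (CACGTG), an E-prime box (CACGTT, a weaker E-box variant) or a RORE (TAGGTCA, the element of the ROR and REV-ERB receptors), searched on both strands. PER2 lies on the minus strand at chr2:238288561-238288860, CRY1 on the minus strand at chr12:107093500-107093799, the second of the CRY2 windows on the plus strand at chr11:45847225-45847524 and BHLHE40 on the plus strand at chr3:4979187-4979486.
PER2: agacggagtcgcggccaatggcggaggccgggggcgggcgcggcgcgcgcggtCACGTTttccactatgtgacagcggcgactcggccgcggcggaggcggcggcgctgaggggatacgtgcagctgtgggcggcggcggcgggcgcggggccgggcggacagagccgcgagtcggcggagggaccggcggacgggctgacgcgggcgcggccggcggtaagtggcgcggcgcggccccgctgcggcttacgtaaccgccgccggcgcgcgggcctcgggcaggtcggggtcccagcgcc
CRY1: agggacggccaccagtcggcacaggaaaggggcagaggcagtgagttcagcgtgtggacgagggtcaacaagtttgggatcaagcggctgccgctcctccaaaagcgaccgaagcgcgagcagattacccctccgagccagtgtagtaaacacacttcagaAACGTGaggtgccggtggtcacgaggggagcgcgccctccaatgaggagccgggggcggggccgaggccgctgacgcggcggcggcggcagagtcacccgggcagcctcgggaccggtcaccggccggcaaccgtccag
CRY2: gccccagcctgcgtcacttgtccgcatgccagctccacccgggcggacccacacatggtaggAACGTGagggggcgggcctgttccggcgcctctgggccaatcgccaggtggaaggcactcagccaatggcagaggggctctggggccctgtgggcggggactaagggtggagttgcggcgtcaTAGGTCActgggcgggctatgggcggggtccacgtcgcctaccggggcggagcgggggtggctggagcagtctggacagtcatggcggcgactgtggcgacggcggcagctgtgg
BHLHE40: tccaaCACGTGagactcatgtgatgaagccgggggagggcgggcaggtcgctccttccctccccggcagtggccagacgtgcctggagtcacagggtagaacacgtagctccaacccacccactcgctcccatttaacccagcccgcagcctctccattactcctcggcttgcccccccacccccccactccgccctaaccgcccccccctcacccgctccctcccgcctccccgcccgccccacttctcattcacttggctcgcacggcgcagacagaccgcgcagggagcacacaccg

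All 10 genes had at least 1 window in the table, 15 windows in all. An E-prime box began 197 bases before the start site of PER2, 89 before that of CRY1, 188 before that of CRY2 (second window) and 187 before that of CLOCK (second window). The E-box of BHLHE40 began 245 bases before its start site, and TEF (195 and 193 bases in its windows) and PER1 (173 bases) held E-boxes too. A D-box was found in PER3 (TTATGTAA, 177 bases before the start) and in PER1 (TTATGCAA, 30 bases before). A RORE lay 65 bases before the start site of CRY2 and 30 bases after that of BMAL1, the member known for its control by REV-ERB. Of 35116 windows of the same length, 7.26% held the E-box, 5.34% the E-prime box, 1.85% the RORE, 0.886% TTATGTAA and 0.846% TTATGCAA. No 2 of these matches overlapped. The HNF4-type motif CAAAGTCCA (0.384% of all windows) and the cyclic AMP element TGACGTCA (1.85%) matched in no window of the 10 genes. Whether any of these matches bears on the levels given further on was not tested.

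**Figure D1:**
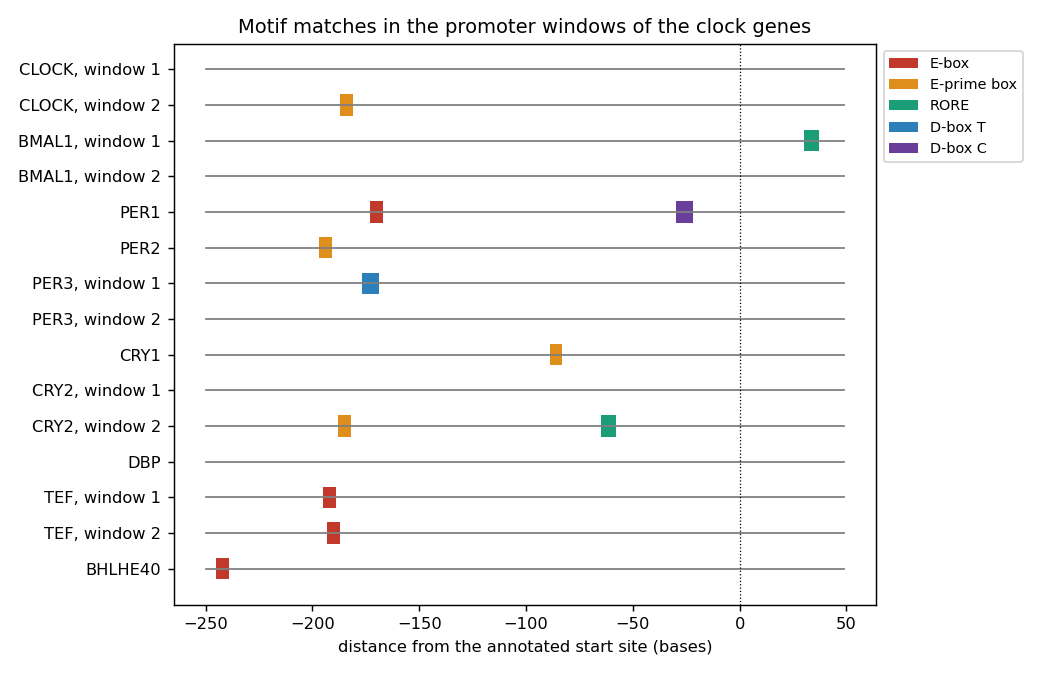
Motif matches in the 15 promoter windows of the 10 clock genes, plotted against the distance in bases from the annotated start site (dotted line), with 1 grey line a window and 1 coloured bar a match. E-prime boxes appear in CLOCK, PER2, CRY1 and CRY2 windows and E-boxes in those of PER1, TEF and BHLHE40.

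The values are MAS5 signals, a linear brightness with no count behind it, scaled again here so that every array had a median of 14.1. With 3 arrays a group, precision is limited. Fold changes are differences of log2(signal + 1.41), which understates the change of dim genes. A gene is called when its adjusted p from limma over all 13072 tested genes is under 0.05. The knockdown itself was checked by HNF4G, whose signal was 14.4 to 23.5 in knockdown1, 24.4 to 41.9 in knockdown2 and 44.9 to 47.9 in control (log2 fold change -0.92 over both knockdowns, SE 0.24, adjusted p = 0.00344). In knockdown2 alone this probe set gave -0.56 (SE 0.28, adjusted p = 0.142), so a lower HNF4G level in knockdown2 was not shown by the test. A dimmer HNF4G probe set had 12.7, 4.31 and 1.98 in knockdown1, 13.3, 1.04 and 2.84 in knockdown2 and 37.5, 28.4 and 21.3 in control; it passed the filter through the control arrays alone, so no test of it is given. HNF4A was not analysed here. All 10 hepatocyte markers fixed for this work, ALB, AFP and APOA1 among them, were above the array medians. Of these, APOA1, TTR and TF were called lower in both knockdowns, and FGB in knockdown1. Of the markers of other cell types, PTPRC, CD3E, CDH5, VWF, KDR, COL3A1 and LUM were dim, while LYZ, CD14, CSF1R, PECAM1, COL1A1, COL1A2, DCN and PDGFRB passed the filter. Among them PECAM1 was called higher in both knockdowns, and DCN lower in knockdown1. CD14 had 2.35, 1.17 and 2.82 in knockdown1, 1.14, 1.14 and 9.79 in knockdown2 and 31.9, 21.6 and 16.7 in control. It passed the filter through the control arrays alone, so no test of it is given. The summed signal of the 4 endothelial markers was 74.4 to 91.9 in knockdown1, 87.5 to 109 in knockdown2 and 59.7 to 61.8 in control, and its part in the results was not tested.

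Across the 8 tested members, 3 were called in knockdown1, 4 in knockdown2 and 4 over both knockdowns, each against control, and 5 differed between knockdown1 and knockdown2. Among all tested genes 33.3% were called in knockdown1 (14.3% higher and 19.0% lower), 27.6% in knockdown2 (13.7% higher and 13.9% lower), 32.5% over both knockdowns (14.6% higher and 17.9% lower) and 26.6% between the knockdowns (10.5% higher and 16.1% lower in knockdown1). With only 8 genes, the counts of 3 to 5 set against these shares give no result about the genes as a set, and what follows is about which of them moved. The split of calls over all genes depends on the scaling: 1865 genes were higher and 2484 lower in knockdown1 against control, but 3107 and 2629 with the values as deposited, and 1368 were higher and 2105 lower in knockdown1 against knockdown2, but 2803 and 2103 as deposited. The median of all tested genes between the knockdowns was -0.03 as scaled and 0.08 as deposited, and the changes are given relative to the scaled one. The median log2 fold change of the tested members was -0.16 in knockdown1 and -0.43 in knockdown2, beside -0.01 and 0.01 over all tested genes. BHLHE40 rose in both knockdowns. CLOCK fell in knockdown1. In knockdown2 its brightest probe set was not called, while its other probe sets above the filter were called lower. PER2 and CRY1 fell in knockdown2. The counts also hold CRY2, called lower in knockdown1, and BMAL1, called narrowly lower in knockdown2. CRY2 had passed the filter through the knockdown2 and control arrays alone, and BMAL1 mostly through the knockdown1 and control arrays. The filter thus favoured these falls of CRY2 and BMAL1. Fewer cells of a kind and less RNA per cell cannot be told apart in these bulk samples.

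**Figure D2:**
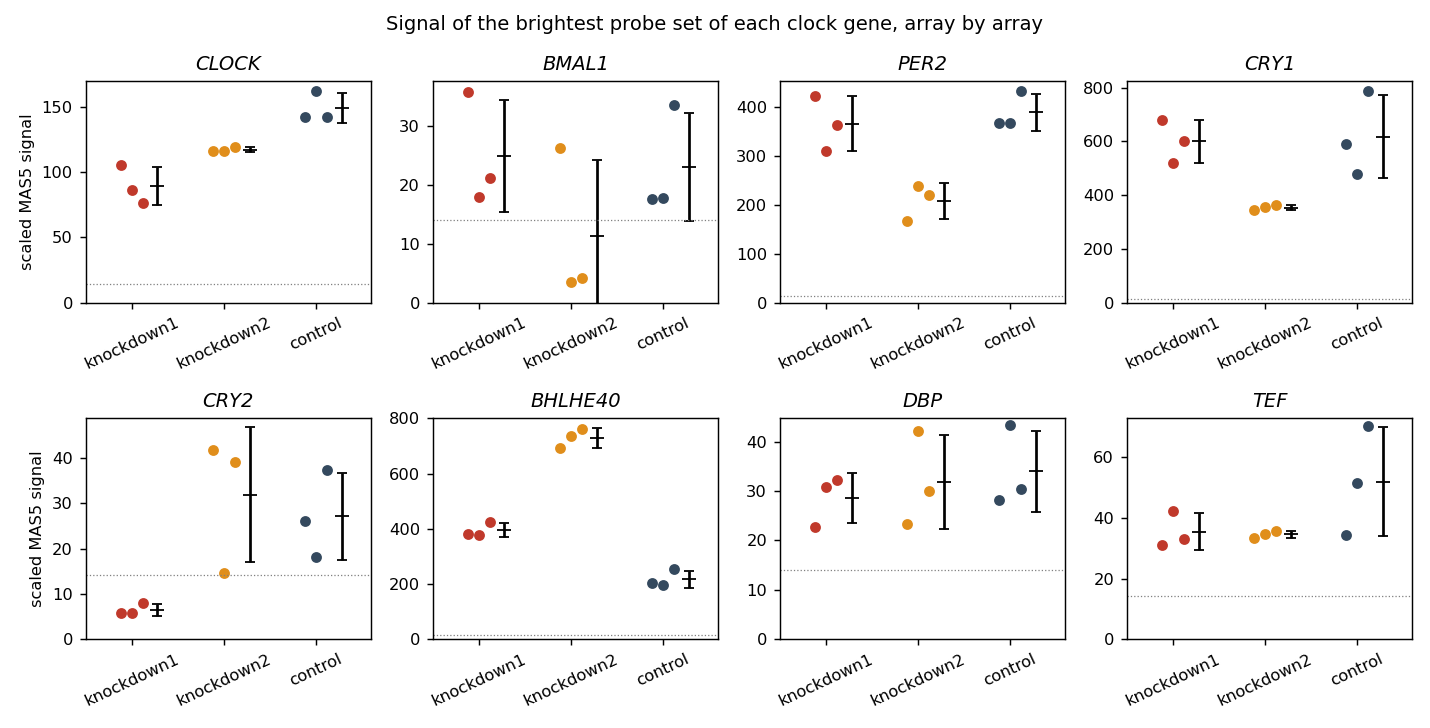
Scaled MAS5 signal (linear axis from 0, own scale in each panel) of the brightest probe set of the 8 tested clock genes, with 1 point an array; black marks are the mean and SD of 3 arrays (cut at 0 for BMAL1 in knockdown2), and the dotted line is the common array median of 14.1. BHLHE40 is above control in all 6 knockdown arrays, PER2 and CRY1 are low in the 3 knockdown2 arrays, and CRY2 is below the median in the 3 knockdown1 arrays.

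BHLHE40, also known as DEC1, encodes the E-box repressor that answers to growth, hypoxia and hormone signals as well as to the clock. Its brightest probe set (201170_s_at) had signals of 383, 379 and 423 in knockdown1, 692, 736 and 762 in knockdown2 and 203, 195 and 253 in control. The 3 groups did not overlap, and their order was knockdown2, then knockdown1, then control. Relative to control, BHLHE40 was 1.82-fold higher in knockdown1 (log2 fold change 0.87, SE 0.14, limma adjusted p = 2.52e-05) and 3.36-fold higher in knockdown2 (1.75, SE 0.14, adjusted p = 3.07e-10). The difference between knockdown1 and knockdown2 was -0.88 (SE 0.14, adjusted p = 2.69e-05). The second probe set (201169_s_at) was dimmer, with 83.3, 71.7 and 79.9 in knockdown1, 151, 147 and 185 in knockdown2 and 34.0, 45.7 and 46.7 in control. It gave the same order of groups without overlap, with log2 fold changes of 0.88 in knockdown1 (SE 0.17, adjusted p = 5.25e-04 over all probe sets) and 1.91 in knockdown2 (SE 0.17, adjusted p = 8.27e-08).

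The activators of the loop come next. CLOCK, the DNA-binding partner of BMAL1, had signals of 105, 86.3 and 76.5 in knockdown1, 116.0, 116.0 and 119 in knockdown2 and 142, 162 and 142 in control by its brightest probe set (204980_at). The groups did not overlap, with control highest and knockdown1 lowest. CLOCK was 1.67-fold lower in knockdown1 than in control (-0.74, SE 0.16, limma adjusted p = 6.20e-04), while the difference of knockdown2 from control was -0.34 (SE 0.16, 95% interval -0.67 to -0.01, adjusted p = 0.12). Between the knockdowns the difference was -0.40 (SE 0.16, adjusted p = 0.0697), so these neighbours in the order did not differ by the test, although the difference was called when knockdown1 replicate 1, control replicate 2 or control replicate 3 was left out (adjusted p of 0.0373 to 0.0477). The other bright CLOCK probe sets went further. For 227531_at the signals were 73.6, 70.6 and 75.8 in knockdown1, 85.0, 96.1 and 96.5 in knockdown2 and 166, 133 and 172 in control, and it fell in knockdown1 (-1.08, SE 0.16, adjusted p = 2.08e-05) as well as in knockdown2 (-0.75, SE 0.16, adjusted p = 0.00127). By 225856_at, too, CLOCK was lower in knockdown1 (-1.11, SE 0.19, adjusted p = 1.25e-04) and in knockdown2 (-0.68, SE 0.19, adjusted p = 0.0112). The last CLOCK probe set (217563_at) was under the array median on each array. The mean of the bright CLOCK probe sets was called in knockdown2 too (-0.59, adjusted p = 0.0038).

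BMAL1, the partner without which the loop stops, was close to the array medians and scattered. Its brightest probe set (209824_s_at) had signals of 35.8, 17.9 and 21.2 in knockdown1, 26.3, 3.53 and 4.10 in knockdown2 and 17.7, 17.8 and 33.6 in control. Low signals occurred on a pair of knockdown2 arrays, the third knockdown2 array lay among the others, and all groups overlapped. The low arrays were under the array median, and every knockdown1 and control array was above it. The filter thus favoured a low knockdown2 level in the tests of BMAL1 as well. BMAL1 passed narrowly in knockdown2 (-1.36, SE 0.52, limma adjusted p = 0.0491) and against knockdown1 (1.48 for knockdown1 minus knockdown2, SE 0.52, adjusted p = 0.0335). Its value in knockdown1 against control was 0.11 (SE 0.52, adjusted p = 0.895). Of the 9 fits that each left out 1 array, the knockdown2 call held only in those without knockdown1 replicate 2 or knockdown2 replicate 1, and in the other 7 the adjusted p was 0.0566 to 0.2. The difference between the knockdowns was lost without knockdown1 replicate 1, knockdown1 replicate 3, knockdown2 replicate 2 or knockdown2 replicate 3 (adjusted p of 0.0731 to 0.167). In all, the knockdown2 call held under 4 of 18 alternatives and was lost, for example, with the values as deposited (adjusted p = 0.0727) and with quantile normalization (adjusted p = 0.0869). The difference between the knockdowns held under 10 of 18 and was lost with quantile normalization too (adjusted p = 0.0593). The second BMAL1 probe set (210971_s_at) was lower on all knockdown2 arrays than on the others, but its value of -0.79 in knockdown2 did not pass (SE 0.45, adjusted p = 0.226). It was above the median on 4 arrays, none of them knockdown2, so the filter favoured a low knockdown2 level and it gives no check. Over both knockdowns BMAL1 gave -0.62 (adjusted p = 0.314), and -1.03 without knockdown2 replicate 1 (adjusted p = 0.0498).

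**Figure D3:**
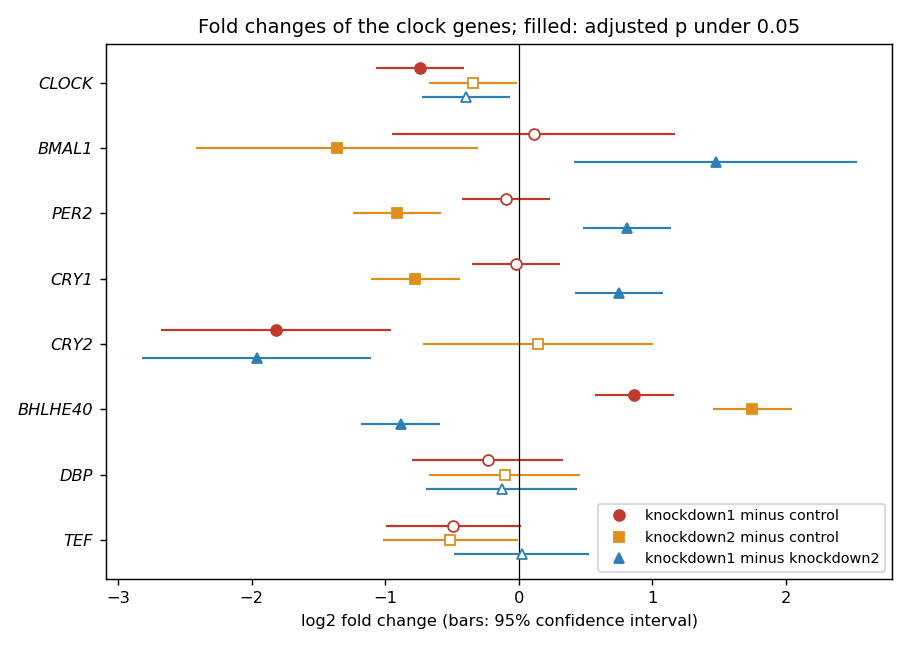
Log2 fold changes of the 8 tested clock genes with 95% confidence intervals, for knockdown1 minus control (circles), knockdown2 minus control (squares) and knockdown1 minus knockdown2 (triangles); filled symbols have an adjusted p under 0.05. PER2 and CRY1 lie near 0 in knockdown1 and below 0 in knockdown2, CRY2 shows the opposite, and BHLHE40 lies above 0 in both.

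Of the repressors, PER2 encodes a scaffold of the PER-CRY complex. It had signals of 423, 309.9 and 363 in knockdown1, 167, 238 and 219 in knockdown2 and 367, 367 and 432 in control (205251_at). The knockdown2 arrays were below all others, and knockdown1 overlapped with control. PER2 was 1.88-fold lower in knockdown2 than in control (-0.91, SE 0.16, limma adjusted p = 7.76e-05). In knockdown1 it gave -0.10 (SE 0.16, 95% interval -0.43 to 0.23, adjusted p = 0.697). The difference between knockdown1 and knockdown2 was 0.81 for PER2 (SE 0.16, adjusted p = 2.98e-04). A second PER2 probe set (208518_s_at) was under the array median on each array and gives no check.

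CRY1, the stronger of the cryptochrome repressors in the mouse clock, followed the same pattern. Its only probe set (209674_at) had 679.7, 521 and 602 in knockdown1, 343, 355 and 364 in knockdown2 and 589, 478 and 786 in control. Again the knockdown2 arrays were the lowest, and knockdown1 and control overlapped. CRY1 was 1.71-fold lower in knockdown2 than in control (-0.77, SE 0.16, limma adjusted p = 5.27e-04) and differed between knockdown1 and knockdown2 (0.75, SE 0.16, adjusted p = 7.16e-04). Its value in knockdown1 was -0.02 (SE 0.16, 95% interval -0.35 to 0.31, adjusted p = 0.945). Over both knockdowns CRY1 was called at -0.40 (SE 0.14, adjusted p = 0.0295), which averages unlike groups and missed the threshold when knockdown1 replicate 2, knockdown2 replicate 1, control replicate 1 or control replicate 3 was left out (adjusted p of 0.0556 to 0.214, lowest size -0.21 without control replicate 3).

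CRY2, the second cryptochrome, was low in knockdown1 and not in knockdown2. Its only probe set (212695_at) had 5.73, 5.75 and 7.94 in knockdown1, 41.8, 14.7 and 39.2 in knockdown2 and 26.1, 18.3 and 37.4 in control. All 3 knockdown1 arrays were under the array median and below every other array, so CRY2 passed the filter through the knockdown2 and control arrays alone. That filter favoured a low knockdown1 level, so the tests of CRY2 below do not by themselves support its fall. The knockdown1 calls were kept under all 18 alternatives that held CRY2, among them a fit without the filter. The stricter filter dropped the gene. Against control, CRY2 was lower in knockdown1 (-1.82, SE 0.42, limma adjusted p = 0.00113), and it differed between knockdown1 and knockdown2 (-1.96, SE 0.42, adjusted p = 7.11e-04). In knockdown2 it gave 0.15 (SE 0.42, 95% interval -0.72 to 1.01, adjusted p = 0.847). At these low signals the size depends on the pseudocount: adding the common median instead gave -0.98 in knockdown1 (adjusted p = 0.00177). Over both knockdowns CRY2 gave -0.84 (adjusted p = 0.0797), and -1.08 without control replicate 2, where it was called narrowly (adjusted p = 0.04999). Proliferation genes moved with this contrast, since the summed signal of 6 such genes (MKI67, TOP2A, CCNB1, CCNA2, MCM5 and RRM2) was 1092 to 1429 in knockdown1, 5411 to 5887 in knockdown2 and 6087 to 7606 in control. All 6 were called lower in knockdown1 against control and against knockdown2, and their part in the CRY2 level was not tested.

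PER3, the remaining repressor, was near the bottom of the range. Its brightest probe set (1555131_a_at) had 12.1, 16.4 and 2.92 in knockdown1, 11.9, 8.50 and 15.8 in knockdown2 and 7.36, 12.7 and 5.96 in control. Only 2 arrays exceeded the common median, the groups overlapped, and the 3 other probe sets were dimmer on average. One of them (221045_s_at) had 5.36, 8.71 and 3.13 in knockdown1, 13.4, 14.6 and 8.73 in knockdown2 and 2.86, 6.60 and 7.68 in control, with 1 array above the median. No fold change is given for PER3.

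The output factors DBP and TEF are PAR bZIP proteins that bind D-boxes, and DBP is a classic marker of clock phase in liver. DBP had signals of 22.7, 30.8 and 32.3 in knockdown1, 23.4, 42.1 and 30.1 in knockdown2 and 28.2, 43.4 and 30.5 in control (209782_s_at). The groups overlapped throughout, and the log2 fold changes were -0.23 in knockdown1 (95% interval -0.80 to 0.34, limma adjusted p = 0.572) and -0.10 in knockdown2 (95% interval -0.67 to 0.46, adjusted p = 0.83). The second DBP probe set (209783_at) was higher on the knockdown1 arrays than on the control arrays and had the other sign, with 0.90 in knockdown1 (SE 0.36, adjusted p = 0.0691) and 0.62 in knockdown2 (SE 0.36, adjusted p = 0.234), so no direction can be given for DBP.

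TEF had signals of 31.0, 42.4 and 33.0 in knockdown1, 33.4, 34.8 and 35.6 in knockdown2 and 34.3, 51.4 and 70.3 in control (225840_at). Control scattered most, and its lowest array lay among the knockdown arrays. TEF gave -0.49 in knockdown1 (SE 0.25, limma adjusted p = 0.133), while it gave -0.51 in knockdown2 (SE 0.25, adjusted p = 0.128), and 0.02 between the knockdowns (95% interval -0.48 to 0.53, adjusted p = 0.963). Without control replicate 1, which was the lowest control array, TEF passed in knockdown1 (-0.75, adjusted p = 0.028) and in knockdown2 (-0.77, adjusted p = 0.0291). Its 3 other probe sets were under the median on each array.

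**Figure D4:**
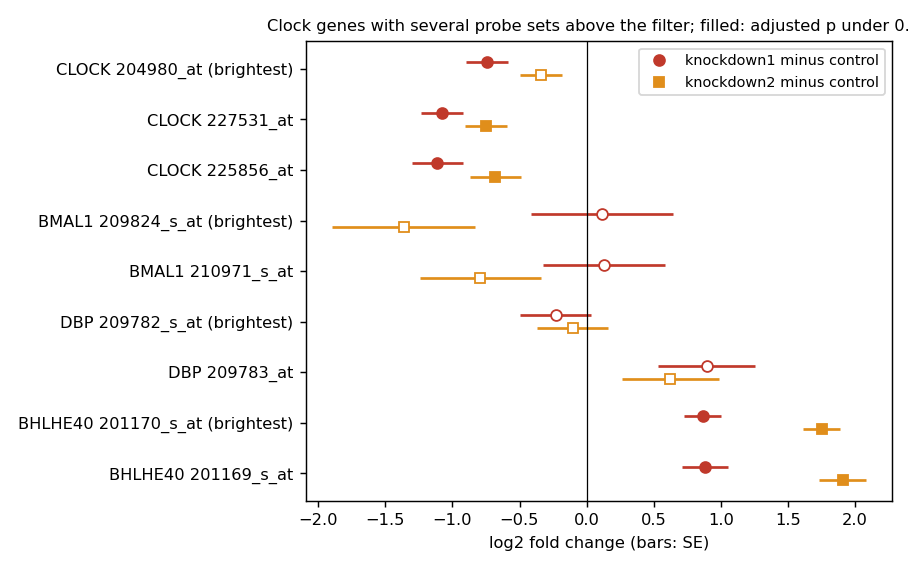
Log2 fold changes with SE for each probe set above the filter of the 4 clock genes that have several, for knockdown1 minus control (circles) and knockdown2 minus control (squares); filled symbols have an adjusted p under 0.05 over all probe sets. The probe sets of CLOCK lie below 0, those of BHLHE40 above 0, and those of DBP on opposite sides of 0.

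The arrays of the 8 members overlapped or separated much as the calls did. The knockdown arrays lay wholly on 1 side of control for CLOCK, CRY2 and BHLHE40 in knockdown1 (39.8% of all tested genes did so), and for CLOCK, PER2, CRY1 and BHLHE40 in knockdown2 (39.7%). Over both knockdowns this held for CLOCK and BHLHE40 (20.9%), and between the knockdowns for CLOCK, PER2, CRY1, CRY2 and BHLHE40 (43.7%).

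Other genes of the loop were taken from a list of 12, of which 9 were tested. Of the 9, 1 rose and 4 fell in knockdown1, where 14.3% of all tested genes were higher and 19.0% lower. In knockdown2 3 rose and 0 fell, against 13.7% and 13.9% of all. Between the knockdowns 6 were lower and 0 higher in knockdown1, against 16.1% and 10.5% of all. The median log2 fold change of the list was -0.27 in knockdown1 and 0.29 in knockdown2, against -0.01 and 0.01 over all tested genes. NPAS2, which can replace CLOCK as the partner of BMAL1, had mean signals of 157 in knockdown1, 202 in knockdown2 and 114 in control, and was higher over both knockdowns (0.64, SE 0.13, limma adjusted p = 3.61e-04). Its knockdown1 value of 0.45 (adjusted p = 0.0215) was no longer called when knockdown1 replicate 2, knockdown1 replicate 3 or control replicate 1 was left out (adjusted p of 0.0546 to 0.0844). Over both knockdowns, then, CLOCK was lower (-0.54, adjusted p = 0.00327) and NPAS2 higher.

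RORA, the receptor that activates BMAL1 through ROREs, had mean signals of 38.3 in knockdown1, 106.5 in knockdown2 and 87.2 in control, and fell in knockdown1 (-1.16, SE 0.20, limma adjusted p = 3.96e-05). NR1D2, which encodes the opposing repressor REV-ERB beta, rose in knockdown2 (0.98, SE 0.20, adjusted p = 4.85e-04) and gave -0.27 in knockdown1 (adjusted p = 0.329). NFIL3, the repressor that competes with DBP and TEF at D-boxes, fell in knockdown1 (-0.63, SE 0.15, adjusted p = 0.00172). HLF, the third PAR bZIP factor and the counterpart of DBP and TEF, rose in knockdown2 (0.63, SE 0.14, adjusted p = 7.60e-04). Its mean signal was 894 in knockdown1, 1379 in knockdown2 and 896 in control. TIMELESS, which in human cells acts mainly at replication forks, fell in knockdown1 (-1.29, SE 0.17, adjusted p = 4.75e-07), where the proliferation genes were lowest too; their part in it was not tested. BMAL2 fell in knockdown1 at -0.55 (adjusted p = 0.0283), a call that ended when knockdown1 replicate 1, knockdown1 replicate 2 or control replicate 1 was left out (adjusted p of 0.119 to 0.165). BHLHE41 and CIART were not called in either knockdown.

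Kinases, ligases and cofactors that set the stability and activity of PER, CRY and CLOCK were read from a list of 20, with 17 tested. In knockdown1 1 rose and 6 fell (33.3% of all tested genes were called), and in knockdown2 6 rose and 2 fell (27.6% of all). The 7 calls in knockdown1 became 11 with the values as deposited or with quantile normalization, while those over all tested genes rose from 4349 to 5736 and 5788. Between the knockdowns 7 were lower and 1 was higher in knockdown1 (26.6% of all). Casein kinase 1, which marks PER proteins for degradation, was higher over both knockdowns for CSNK1D (0.53, SE 0.13, limma adjusted p = 0.00151) and CSNK1E (0.77, SE 0.17, adjusted p = 7.34e-04). CSNK1E rose in knockdown2 (1.29, adjusted p = 9.68e-06), and its value in knockdown1 was 0.25 (adjusted p = 0.361). PRKAA2, a catalytic subunit of the energy sensor AMPK, which phosphorylates CRY1, had a mean signal of 78.9 in knockdown1, 288 in knockdown2 and 70.9 in control, and rose in knockdown2 (2.01, SE 0.17, adjusted p = 4.39e-10).

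WDR5, USP2, SIRT1 and PRKAA1 fell in knockdown1 and were lower there than in knockdown2. WDR5, a histone methylation cofactor of PER complexes, fell by 1.68 in knockdown1 (SE 0.16, limma adjusted p = 1.45e-09) and gave -0.20 in knockdown2. USP2, a rhythmic deubiquitinase, fell by 1.80 (SE 0.33, adjusted p = 9.87e-05), SIRT1, a deacetylase that acts on BMAL1 and PER2, fell by 0.96 (SE 0.16, adjusted p = 3.81e-05), and PRKAA1, the other AMPK catalytic subunit, fell by 0.80 (SE 0.18, adjusted p = 8.57e-04). DDB1, part of a ligase that targets CRY1, fell in knockdown2 (-0.73, SE 0.14, adjusted p = 2.33e-04). GSK3B, a kinase of several clock proteins, was lower in knockdown1 (-0.48, adjusted p = 0.0102; by the mean of its probe sets -0.09, adjusted p = 0.631) and rose in knockdown2 (0.70, SE 0.14, adjusted p = 4.47e-04). BTRC, a ligase subunit for PER proteins, was lower over both knockdowns by its brightest probe set (-0.69, SE 0.14, adjusted p = 4.32e-04), while the mean of its probe sets gave -0.10 (adjusted p = 0.741). KDM5A passed in knockdown2 (0.41, adjusted p = 0.0482) but not in 7 of the 9 fits that left out 1 array, all but those without knockdown1 replicate 3 or control replicate 2 (adjusted p of 0.0552 to 0.151). SIRT1 passed narrowly upwards in knockdown2 (0.44, adjusted p = 0.0481), a call that held under 8 of 19 alternatives (0.28 to 0.64, adjusted p up to 0.206). The arrays whose removal ended the SIRT1 call were all except knockdown1 replicate 2 and control replicate 3.

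Clock-controlled output genes were read from a list of 18, of which 12 were tested. In knockdown1 3 rose and 3 fell (33.3% of all tested genes were called), and in knockdown2 5 rose and 2 fell (27.6% of all). KLF10, an E-box-driven repressor of hepatic glucose genes, rose in knockdown1 (0.93, limma adjusted p = 2.59e-05) and knockdown2 (1.47, adjusted p = 3.18e-08), with mean signals of 723 in knockdown1, 1051 in knockdown2 and 385 in control. FKBP5, a chaperone gene, rose over both knockdowns (0.86, SE 0.12, adjusted p = 2.58e-06). KLF9 rose over both knockdowns by its brightest probe set (0.87, SE 0.14, adjusted p = 1.13e-05), although the mean of its probe sets gave 0.35 (adjusted p = 0.122). POR, the electron donor of the cytochrome P450 enzymes, fell in both knockdowns (-0.55 in knockdown1 and -0.88 in knockdown2, adjusted p = 0.00495 and 4.89e-05). WEE1, a mitotic kinase gene with E-boxes, had 265 in knockdown1, 1211 in knockdown2 and 771 in control, lower in knockdown1 (-1.53, SE 0.16, adjusted p = 1.80e-08) and higher in knockdown2 (0.67, SE 0.16, adjusted p = 0.00228).

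PPARA fell in knockdown2 (-0.90, SE 0.21, limma adjusted p = 0.00196), though not by the mean of its probe sets (-0.41, adjusted p = 0.262). ALAS1, the first enzyme of heme synthesis, was called over both knockdowns at -0.36 (adjusted p = 0.0223) and lost the call when knockdown1 replicate 2, knockdown2 replicate 1, control replicate 1 or control replicate 3 was left out (adjusted p of 0.0526 to 0.116). NAMPT, which makes the NAD precursor and is a direct CLOCK target, gave 0.43 in knockdown2 (adjusted p = 0.0405) and 0.01 in knockdown1. The NAMPT call ended without knockdown1 replicate 1, any 1 knockdown2 array, control replicate 1 or control replicate 2 (adjusted p of 0.0511 to 0.13).

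**Figure D5:**
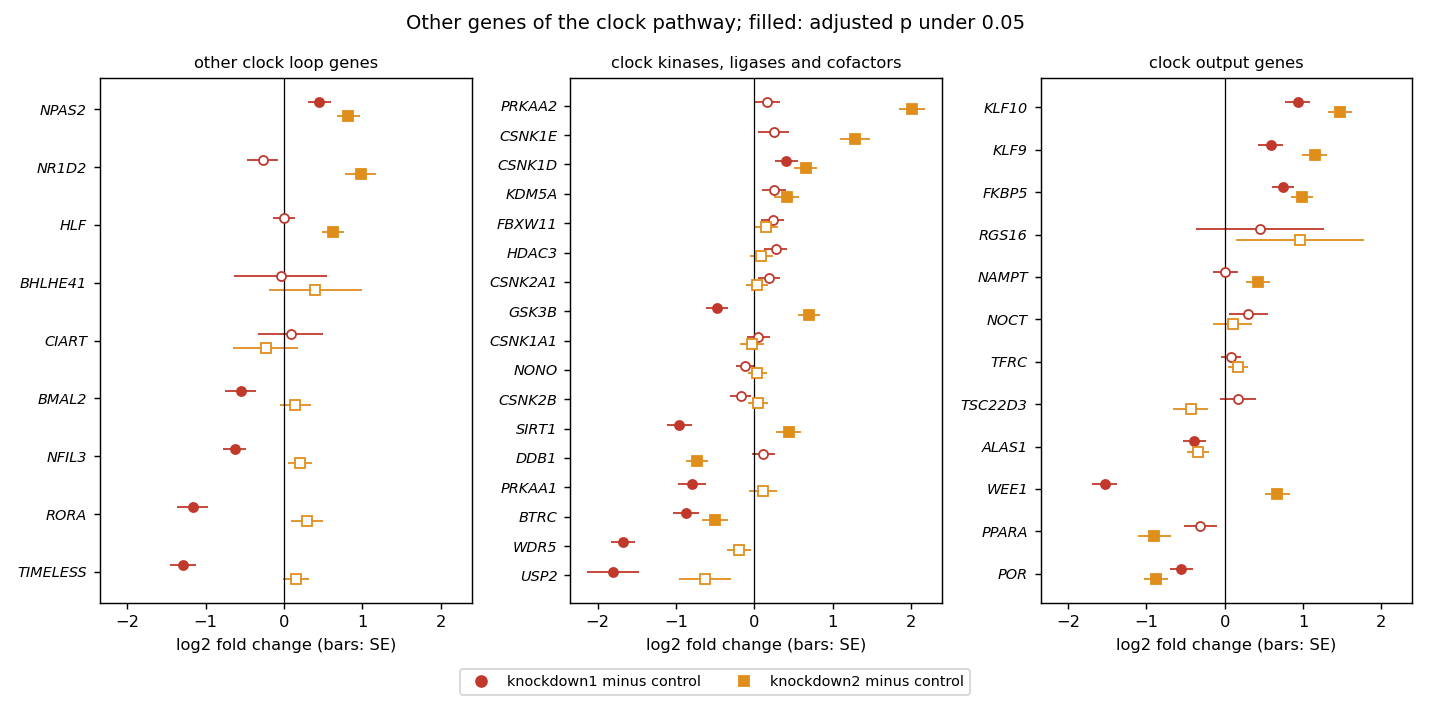
Log2 fold changes with SE of the tested genes of 3 further clock lists, for knockdown1 minus control (circles) and knockdown2 minus control (squares); filled symbols have an adjusted p under 0.05. Genes such as RORA, TIMELESS, WDR5 and WEE1 fell in knockdown1, and PRKAA2, CSNK1E and NR1D2 rose in knockdown2.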

How the data were processed

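The authors deposited 1 linear intensity per probe set and array, computed with MAS5, per the submitters' processing notes, which name no version. These intensities had already been scaled alike, since their 2% trimmed mean was 100.014 or 100.015 on every array. Their array medians still differed 1.28 times. Scaling factors of 0.898 to 1.15 therefore set every median to 14.1 in a further scaling, and log2(signal + 1.41) was taken. Over both knockdowns 4253 genes were called with this scaling and 5498 with the values as deposited. Of 54675 probe sets, 41091 non-control ones had 1 gene symbol in the platform annotation, 1801 several and 11721 none; 0 symbols needed an update. A probe set was kept if above its array median in at least 3 of 9 arrays (24595 kept), and each of 13072 genes was represented by its brightest one.

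All arrays entered 1 fit of 3 groups with limma 3.58.1 in R 4.3.3 (variance trend, two-sided, Benjamini-Hochberg over all tested genes, threshold 0.05). On simulated data with 200 changed genes among 13072, the fit of both knockdowns against control recovered 43.3% of 1.5-fold, 68.7% of 2-fold and 83.3% of 4-fold changes. Arrays of a group shared at most 1.37% of values, and each counted as 1 replicate. Deviations of arrays with the same replicate number correlated at -0.02 to 0.14, and those with different numbers at -0.12 to 0.08, so no pairing was used. Such correlations do not see a shift of a whole array, and a replicate block raised the calls over both knockdowns from 4253 to 4907. Alternatives were other scalings, pseudocounts, filters, probe-set rules, no trend, a replicate block and leaving out each array. Members and lists were chosen with earlier results of these data known. Named genes were the members, HNF4G and genes called in the 3 further clock lists. Promoters came from RefSeq (GRCh38.p14).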

Additional observations from a re-analysis of the deposited data

Results flagged for a closer look

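These genes differed between knockdown1 and knockdown2 in the 3-group fit (limma adjusted p under 0.05 over all tested genes), which is a test of the difference itself; values are log2 differences, knockdown1 minus knockdown2. Among the clock genes, BMAL1 (1.48), PER2 (0.81) and CRY1 (0.75) were higher in knockdown1, and CRY2 (-1.96) and BHLHE40 (-0.88) were lower there. CRY2 had passed the filter through the knockdown2 and control arrays alone, which favoured a low knockdown1 level. For BMAL1 the filter favoured a low knockdown2 level. Other genes of the loop were all lower in knockdown1 where called, namely BMAL2 (-0.70), NR1D2 (-1.25), RORA (-1.46), TIMELESS (-1.45), NFIL3 (-0.84) and HLF (-0.63). Among kinases, ligases and cofactors, DDB1 (0.85) was higher, and CSNK1E (-1.04), GSK3B (-1.17), PRKAA1 (-0.91), PRKAA2 (-1.85), SIRT1 (-1.39), USP2 (-1.17) and WDR5 (-1.48) were lower. Among output genes, PPARA (0.59) and TSC22D3 (0.60) were higher, and NAMPT (-0.42), WEE1 (-2.20), KLF9 (-0.56) and KLF10 (-0.54) were lower. The difference held under 10 of 18 alternatives for BMAL1 and 15 of 18 for USP2, and under 10 of 19 for PPARA, 10 of 19 for TSC22D3, 11 of 19 for NAMPT, 16 of 19 for KLF10 and 18 of 19 for KLF9; it held under every alternative run for the other genes named. Because the labels do not tell the knockdowns apart, no treatment can be set against these differences. The summed proliferation signal differed between the knockdowns too, at 1092 to 1429 in knockdown1 and 5411 to 5887 in knockdown2. It was highest in control (6087 to 7606), and many of the genes named had another order of groups. Its part in these differences was not tested.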

How the results depend on the processing

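Over the tested clock genes, 139 of 150 alternative values against control kept their direction and side of the threshold in knockdown1, 128 of 150 in knockdown2, 139 of 150 over both knockdowns and 132 of 150 between the knockdowns. BHLHE40 against control, CLOCK in knockdown1, and PER2 and CRY1 in knockdown2 kept their calls under each alternative run. With the values as deposited, other clock loop genes called over both knockdowns numbered 5 in place of 3, and kinases, ligases and cofactors 11 in place of 6 (11 in place of 7 in knockdown1). Calls over all 13072 tested genes rose as well, from 4253 to 5498 over both knockdowns and from 4349 to 5736 in knockdown1. Quantile normalization gave 12 and 11 for the same kinase list, and centring on the tested genes gave 10 over both knockdowns and 5 for the loop genes. For all tested genes, quantile normalization gave 5563 over both knockdowns and 5788 in knockdown1, and centring 5348 over both knockdowns. The gains in the lists are therefore no result about the lists. Arrays were left out with the scaled values only. Among calls lost that way, CRY1 and ALAS1 over both knockdowns were kept as deposited (limma adjusted p = 0.00511 and 4.68e-04). So were NAMPT and SIRT1 in knockdown2 (0.00235 and 0.0103) and NPAS2 in knockdown1 (9.22e-04). BMAL2 in knockdown1 (0.0521) and BMAL1 and KDM5A in knockdown2 (0.0727 and 0.0684) were not. The stricter filter left 6 clock genes, without BMAL1 and CRY2, and 3 of these differed between the knockdowns, as did 3455 of all 9890 genes left. CRY1 in knockdown1 turned to 0.069 as deposited, 0.072 with quantile normalization and 0.040 with centring. DBP by the mean of its probe sets was 0.33 in knockdown1, 0.26 in knockdown2, 0.30 over both knockdowns and 0.073 between them. Leaving out 1 array at a time turned the sign of small values that were not called: BMAL1 (-0.17 to 0.40), PER2 (-0.21 to 0.017) and CRY1 (-0.19 to 0.17) in knockdown1, CRY2 (-0.11 to 0.60) and DBP (-0.32 to 0.087) in knockdown2, DBP over both knockdowns (-0.28 to 0.014), and DBP (-0.32 to 0.087) and TEF (-0.11 to 0.11) between the knockdowns. The cause of these changes was not tested. With the replicate number as a block, 3 clock genes were called in knockdown1, 4 in knockdown2, 4 over both knockdowns and 6 between the knockdowns, where CLOCK was added (-0.40, limma adjusted p = 0.0435). Over all tested genes the block gave 4996, 4262, 4907 and 4142 calls in the same order, in place of 4349, 3607, 4253 and 3473. By the labels, same-numbered arrays shared only a number, and their deviations correlated at -0.02 to 0.14. Of 1401 alternatives for 74 values of HNF4G and the other named pathway genes, added after seeing the data, 1280 kept the call, 121 lost it and 0 reversed. Signals near the array median limit BMAL1, CRY2, DBP and PER3.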

Other observations

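By Pearson correlation of log2 signals over the 9 arrays, the genes most like BHLHE40 among 13071 others were SVIL (0.996), GCLC (0.995), ARHGAP5-AS1 (0.995), PERP (0.995) and RGS10 (0.994), and 398 genes exceeded 0.9. For CLOCK they were PLA2G6 (0.982), HAVCR1 (0.962), MEIS3P1 (0.942), TOE1 (0.937) and BUD13 (0.937), and 38 genes exceeded 0.9. The 9 arrays fall into the same 3 groups for every gene, so these values describe a shared pattern over groups and carry no test.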
